A study of Mus musculus with 12 samples.

Results

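MicroRNAs (miRNAs) numbered from 670 up to, but not including, 1000 were examined in pancreatic islets, the endocrine cell groups of the pancreas in which beta cells make insulin. Members were taken by name alone. A row of the panel was a member when its miRNA name, without species prefix, carried such a number, and rows for starred minor strands and for miR-673, miR-675, miR-679, miR-758 and miR-770, which come from imprinted loci, were left out. This gave 87 of the 750 miRNA rows of a panel of 846 rows, and the 87 rows carried 81 names. The islets came from male C57BL/6 mice aged 2 to 3 months, born to dams kept through pregnancy either on a low-protein diet (LP0.5, 6 samples) or on a control diet (Control, 6 samples), and were hand-picked and rested overnight in culture before RNA was isolated. Neither group is labelled as carrying a transgene or drug treatment. Levels were measured by TaqMan real-time PCR, and the labels do not say whether animals were pooled.

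The deposited table compares the groups by 1 linear ratio per row, and its heading names LP0.5 first and Control second, so that values above 1 stand for more of a miRNA in LP0.5 islets. Direction rests on that heading. The study is known for naming miR-199a-3p among miRNAs raised in low-protein islets, while the authors' deposited table lists it at 0.422. If the ratio ran the other way, all counts above and below 1 would change places, with miR-874 then highest at 33.6 and miR-697 lowest at 0.0113. No replicate value or error could be attached to a ratio, so no value below has a test, and values are given as listed above or below 1.

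A miRNA is cut from a hairpin precursor, and its seed, bases 2 to 8 from the 5′ end, directs it to messenger RNAs. Numbers were handed out in order of discovery, so miRNAs of this range share a period of discovery and not a function. The range holds miRNAs conserved between mouse and human, such as miR-671, miR-708 and miR-802, many sequences known from rodents, fragments of structural RNA that were first named as miRNAs, and an X-linked cluster known for expression in testis. MiR-708 is known as a miRNA induced by endoplasmic reticulum stress, and miR-802 as one that rises in obesity and impairs insulin secretion by islets.

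The mature sequences of the members farthest from 1 whose arm could be identified are shown first, since the arm decides which sequence such an assay reads. All are mouse sequences from RefSeq (GRCm38.p6), the seed is in capitals, and 6 members listed at least 1.5-fold above 1 come before 5 listed at least 1.5-fold below.
miR-697: aACAUCCUgguccuguggaga
miR-671-5p: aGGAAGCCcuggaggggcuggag
miR-687: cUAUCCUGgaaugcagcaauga
miR-680: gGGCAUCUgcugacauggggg
miR-706: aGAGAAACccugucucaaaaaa
miR-718: cUUCCGCCcggccgggugucg
miR-878-3p: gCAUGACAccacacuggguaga
miR-804: uGUGAGUUguuccucaccugga
miR-763: cCAGCUGGgaagaaccaguggc
miR-764-5p: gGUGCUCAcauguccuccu
miR-682: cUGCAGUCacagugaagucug

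No seed is shared among these 11 sequences. The miR-697 sequence lies at chr4:124731768-124731788 (plus strand) within the span of Sf3a3, which encodes a splicing factor subunit, and miR-671-5p lies at chr5:24592132-24592154 (plus strand) within Chpf2. MiR-687 lies at chr14:73206808-73206829 (minus strand) within Rb1, the retinoblastoma gene, and miR-764-5p at chrX:147002285-147002303 (plus strand) within Htr2c, a serotonin receptor gene. The miR-763 sequence lies at chr10:120448052-120448073 (minus strand) within Hmga2. The miR-680 sequence is present at 3 loci, on chromosomes 6, 12 and X, so its assay cannot tell them apart. For 28 of the 87 rows RefSeq lists both arms while the assay name gives none; 46 rows matched an entry by exact name, 1 matched a hairpin with a single listed arm, and 12 had no match.

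Fewer of these miRNAs had a ratio than the panel as a whole. A ratio was listed for 42 of 87 rows (48.3%), against 75.5% of all 750 miRNA rows. The panel consists of 2 assay sets, named A and B, and the gap was present in both. In the A set 18 of 40 rows had a ratio (45.0%), against 80.6% of all miRNA rows of that set, and in the B set 24 of 47 had one (51.1%), against 70.2%. Why a row has no ratio is not given in the sources used here, so a blank is not read as an absent miRNA.

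**Figure D1:**
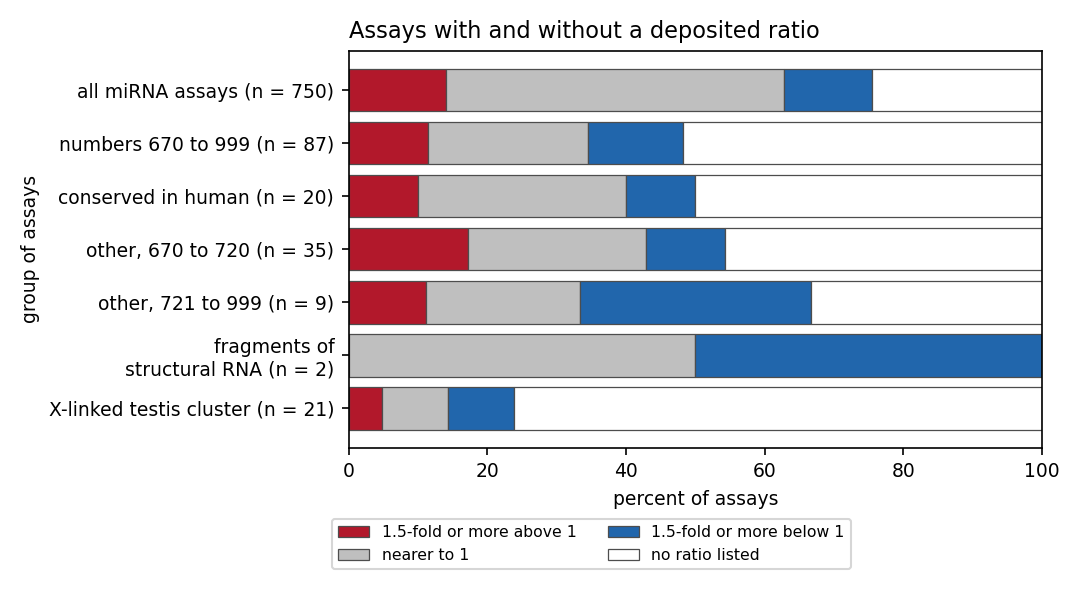
Percent of assays (x axis) in each group (y axis) listed at least 1.5-fold above 1 (red), nearer to 1 (grey), at least 1.5-fold below 1 (blue) or without a ratio (white). Of the 87 assays in the number range, 45 lie in the white part, and of the 21 in the X-linked testis cluster, 16 do.

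Numbers assayed by several rows rarely had more than 1 listed. Of 69 numbers, counting lettered copies such as miR-743a and miR-743b apart, 15 had several rows, and for miR-671 alone among them were 2 or more listed. Most of these 15 numbers belong to the X-linked testis cluster, described below. Exactly 1 row was listed for 7 of the 15 (miR-742, miR-743a, miR-764, miR-871, miR-875, miR-878 and miR-880) and none for the other 7 (miR-693, miR-711, miR-743b, miR-876, miR-881, miR-883a and miR-883b). Among the other miRNA numbers of the panel, without starred strands, 75 of 109 with several rows had 2 or more listed (68.8%), against 6.67% here. No miRNA name in this range therefore had a pair of ratios with which to check an assay against another.

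By species prefix, 31 of 65 rows with a mouse name had a ratio (47.7%, against 67.8% of all mouse-named miRNA rows). Of 12 rows with a human name 9 had one, against 91.3% in the panel, and of 10 with a rat name 2 had one, against 61.3%. Each share lay below that of the whole panel for the same prefix. Most of the rat-named rows belong to the X-linked testis cluster, described below, so their share largely repeats that of the cluster.

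Where a ratio was listed, it lay farther from 1 more often than in the panel. The median ratio was 0.962, with quartiles of 0.593 and 1.31, against a median of 1.01 with quartiles of 0.792 and 1.27 over all 566 miRNA rows with a ratio. Of the 42 rows, 19 were listed above 1 (45.2%, against 50.9% of the panel) and 23 below, where the panel has 49.1%. Measured against 4 other small RNA controls instead of U6, 15 were above 1 (35.7%, against 37.3% of the panel), so the gap in this share nearly closed. The gap in the median did not. The median log2 ratio was then -0.25, against -0.15 in the panel, where the deposited ratios gave -0.06 and 0.01. With the median of all miRNA rows of each set as the reference, 42.9% were above 1, against 50.0% of the panel. At least 1.5-fold above 1 were 10 rows, where the panel has 18.6%, and at least 1.5-fold below were 12, where it has 16.8%. In either direction this was 22 of 42 (52.4%), against 35.3%. At least 4-fold from 1 were 10 rows (23.8%), against 12.5%; 6 of them were above 1 and 4 below, where the panel has 6.36% and 6.18%. Within each set the share at least 1.5-fold from 1 was 50.0% (9 of 18) against 28.9% in the A set and 54.2% (13 of 24) against 42.7% in the B set. For rows with a mouse name it was 51.6% (16 of 31), against 42.8% of all mouse-named miRNA rows with a ratio, a smaller gap. For rows with a human name it was 44.4% (4 of 9) against 23.7%. The 2 rat-named rows with a ratio were both that far from 1, against 52.2%. These shares are descriptions with no test, and the panel shares include the members.

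**Figure D2:**
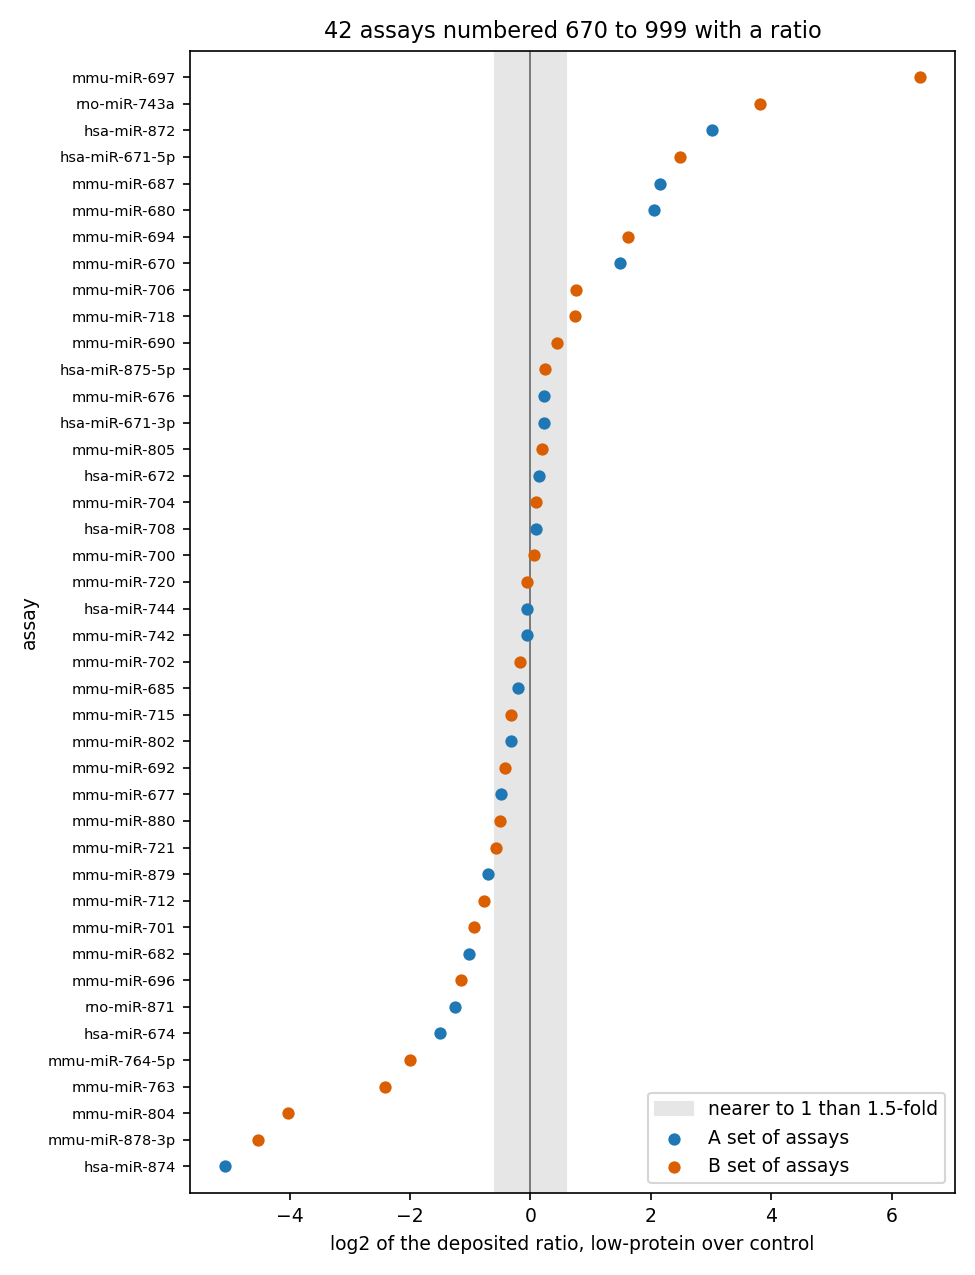
Log2 of the deposited ratio, low-protein over control (x axis), for the 42 assays with a ratio (y axis), by assay set. Points run from -5.07 for miR-874 to 6.47 for miR-697, and 20 lie in the grey band nearer to 1 than 1.5-fold.

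Spots of the small RNA controls give a scale for these values. The reference behind the ratios is not stated. They are taken here as relative to U6, whose 8 spots had a mean log2 of 0.00 in each set. The 95th percentile of a control spot's distance from its own median within a set was 1.28-fold over 80 spots, while the 38 miRNA names measured by a pair of assays were up to 5.98-fold apart at the 95th percentile. The former leaves out how far a control lay from 1. Spots beyond the 1.5-fold limit reached 1.91 for Y1 and 0.133 for U87 in the B set, and 1.56 for snoRNA135 in the A set. The median of Y1 in the B set was itself at about that limit. In the other set each of these controls stayed nearer to 1 than 1.5-fold, as did U6 and snoRNA202 in both sets. Farther from 1 than 5.98-fold were 6 of the 42 rows (14.3%), against 9.36% of the panel. A plant miRNA that mice lack was listed from 2.59 to 3.37 at its 8 spots of the B set. In the A set 2 of its 8 spots had a ratio, on opposite sides of 1 at 0.139 and 1.96. Of the B set rows of the number range, 1 (miR-694) lies inside the plant miRNA's B set range and 3 lie above it. What part this has in the ratios was not tested.

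Markers of the cells that an islet sample can hold had ratios on both sides of 1. The islet marker miR-375 stood at 1.17 and the endothelial marker, the assay named miR-126, at 0.975 in the authors' deposited table. Acinar markers stood at 0.726 for miR-216a, 0.970 for miR-216b, and 1.83 and 0.950 for the A and B assays of miR-217 in the authors' deposited table. Of the blood markers, miR-451 stood at 0.620 and miR-150 at 1.78 in the authors' deposited table. The mesenchymal marker miR-145 stood at 2.66, and the A and B assays of miR-143 at 1.11 and 0.190, in the authors' deposited table. A ratio says nothing of the level, so the share of each cell type in the samples was not assessed, and its part in the ratios of the number range was not tested.

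**Figure D3:**
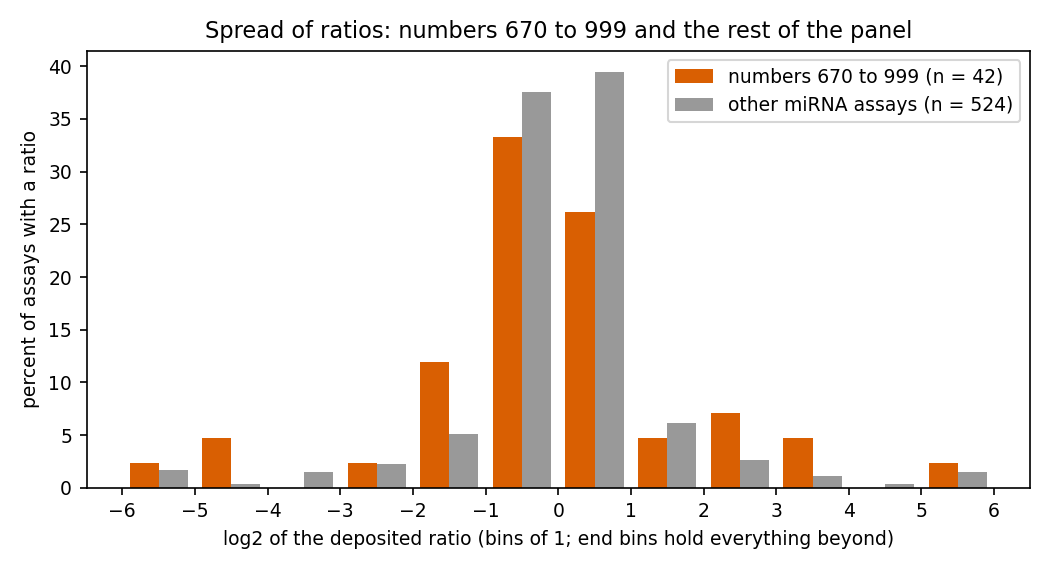
Percent of assays with a ratio (y axis) per bin of 1 on the log2 scale (x axis; the end bins also hold all ratios beyond -6 and 6), for the 42 assays in the number range (orange) and the 524 other miRNA assays (grey). Beyond the axis lie miR-697, at 6.47, and 10 other miRNA assays, 4 above and 6 below. Within 2-fold of 1 lie 59.5% of the former and 77.1% of the latter.

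A list of miRNAs conserved in human under the same number held 20 rows, of which 10 had a ratio. The list is not complete, since miR-711, miR-718, miR-759 and miR-935 also exist in human and are described with other groups. At least 1.5-fold from 1 were 4 of the 10 rows, 2 on each side, a share close to the 35.3% of the panel. Listed above 1 were 6 and below 1 were 4, where the panel has 50.9% above. Measured against the 4 other small RNA controls, 5 were above and 5 below, where the panel then has 37.3% above. The median of the list on the log2 scale moved from 0.16 to -0.04, and that of the panel from 0.01 to -0.15. MiR-671-5p, which directs cleavage of the circular RNA Cdr1as, stood at 5.60 in the authors' deposited table. The other arm of that hairpin, miR-671-3p, stood at 1.16 in the authors' deposited table, so the arms were on the same side of 1 and unequal in size; the 5p assay is in the B set and the 3p assay in the A set. MiR-670 stood at 2.80 in the authors' deposited table.

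The lowest ratio of the whole range came from the same list. MiR-874 stood at 0.0298 in the authors' deposited table, which is 33.6-fold below 1. MiR-764-5p, from the serotonin receptor gene Htr2c, stood at 0.251 in the authors' deposited table, and its other arm, miR-764-3p, had no ratio. The other members of the list with a ratio were nearer to 1 than 1.5-fold. The authors' deposited table lists miR-676, within Eda, at 1.17 and miR-875-5p at 1.18. MiR-744, from within Map2k4, stood at 0.964 in the authors' deposited table. Rows for miR-760-5p, miR-761, miR-762, miR-764-3p, miR-767, miR-873, miR-875-3p, miR-876, miR-876-3p and miR-876-5p had no ratio.

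A list of miRNAs linked to glucose handling or cell stress held miR-671, miR-690, miR-708, miR-802 and miR-872, and all 6 of its rows had a ratio. Listed above 1 were 5 and below 1 was 1, where the panel has 50.9% above. With the other small RNA controls as the reference these counts became 4 and 2, where the panel has 37.3% above. At least 1.5-fold above 1 were 2 rows (33.3%, where the panel has 18.6% above and 35.3% in either direction). MiR-872 stood at 8.13 in the authors' deposited table, the third highest ratio of the range. MiR-690, known as an insulin-sensitising cargo of macrophage exosomes, stood at 1.36 in the authors' deposited table. MiR-708, from within Tenm4, stood at 1.07 in the authors' deposited table and miR-802 at 0.797, both nearer to 1 than 1.5-fold. The remaining rows of this list are the arms of miR-671 described above. With 5 numbers, this list cannot stand for its pathways.

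The largest group was that of the other miRNAs numbered 670 to 720, most of them known from rodents. Of 35 rows 19 had a ratio. At least 1.5-fold from 1 were 10 of them (52.6%, against 35.3% of the panel), 6 above, where the panel has 18.6%, and 4 below, where it has 16.8%. Listed above 1 were 10 and below 1 were 9, where the panel has 50.9% above. Against the other small RNA controls 7 were above 1 and 12 below, where the panel has 37.3% above. The median of the group on the log2 scale moved from 0.06 to -0.06, and that of the panel from 0.01 to -0.15. MiR-697 stood at 88.8 in the authors' deposited table, the highest ratio of the range. Its nearest neighbour on chromosome 4, miR-698, lies 12029 bases away and had no ratio.

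The next highest of this group were close to each other. MiR-687, known as a hypoxia-induced miRNA in kidney, stood at 4.45 in the authors' deposited table. MiR-680 stood at 4.17 and miR-694 at 3.08 in the authors' deposited table. MiR-706, from within Wnk1, stood at 1.70 and miR-718, from within the signalling kinase gene Irak1, at 1.67 in the authors' deposited table, both near the 1.5-fold limit. Of these, miR-687 and miR-680 are in the A set and the others in the B set.

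Below 1 the same group was less spread. The authors' deposited table lists miR-674 at 0.353, the lowest of the group. MiR-696, known to repress the metabolic coactivator PGC-1alpha in muscle, stood at 0.449 in the authors' deposited table. MiR-682 stood at 0.493 and miR-701 at 0.521 in the authors' deposited table. Between the limits lay 9 rows, from 0.711 for miR-677, within the ATP synthase gene Atp5b, to 1.36 for miR-690 in the authors' deposited table. They include, in the authors' deposited table, miR-700 at 1.04, miR-704 at 1.07, miR-672 at 1.10, miR-702 at 0.885, miR-685 at 0.867, miR-715 at 0.799 and miR-692 at 0.740. No ratio was listed for miR-683, miR-684, miR-686, miR-688, miR-691, miR-693, miR-693-3p, miR-695, miR-698, miR-707, miR-710, both miR-711 assays, miR-713, miR-717 and miR-719.

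A list of fragments of structural RNA that were named as miRNAs held 2 rows, both below 1, where the panel has 49.1% below. This list was chosen by number and may not be complete, so its 2 rows cannot stand for all such fragments. MiR-712, which derives from precursor ribosomal RNA and is known from endothelium under disturbed flow, stood at 0.588 in the authors' deposited table. MiR-720, a transfer RNA fragment, stood at 0.968 in the authors' deposited table.

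Among the remaining numbers above 720, 6 of 9 rows had a ratio, 2 above 1 and 4 below, where the panel has 50.9% above. At least 1.5-fold from 1 were 4 of the 6 (66.7%, against 35.3% of the panel). MiR-804 stood at 0.0613 and miR-763, from within the growth gene Hmga2, at 0.187 in the authors' deposited table. MiR-879 stood at 0.610 in the authors' deposited table, the nearest of all members beyond the 1.5-fold limit, and miR-721 at 0.673, the nearest short of it. MiR-872, given above, was the row at least 1.5-fold above 1, and miR-805 stood at 1.14 in the authors' deposited table. MiR-759, miR-882 and miR-935 had no ratio.

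The X-linked testis cluster was the group with the lowest share of rows with a ratio. These miRNA genes are known for expression in male germ cells, a cell type that islets do not hold. Whether this bears on the missing ratios was not tested. In RefSeq the 10 genes of the cluster lie on the minus strand between chrX:66776760-66810494 (GRCm38.p6), a span of 33.7 kb. Of their 21 rows 5 had a ratio (23.8%, against 75.5% of the panel). Of these, 1 was above 1 and 4 were below, where the panel has 50.9% above. Outside the cluster 37 of 66 rows had one (56.1%), so the remaining members were also below the panel's share.

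Ratios from the cluster disagreed in direction and size. The rat-named assay of miR-743a stood at 14.0 in the authors' deposited table, while the mouse-named assay of miR-743a had no ratio. MiR-878-3p stood at 0.0436 in the authors' deposited table, while miR-878-5p and the rat-named miR-878 had none. The rat-named assay of miR-871 stood at 0.416 in the authors' deposited table, and its human-named assay had none. The authors' deposited table gives the mouse-named assays of miR-880 and miR-742 as 0.703 and 0.959, and the rat-named ones had none. Thus 5 of the 10 genes had a ratio from 1 assay each. The other 5, miR-741, miR-743b, miR-881, miR-883a and miR-883b, had none.

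**Figure D4:**
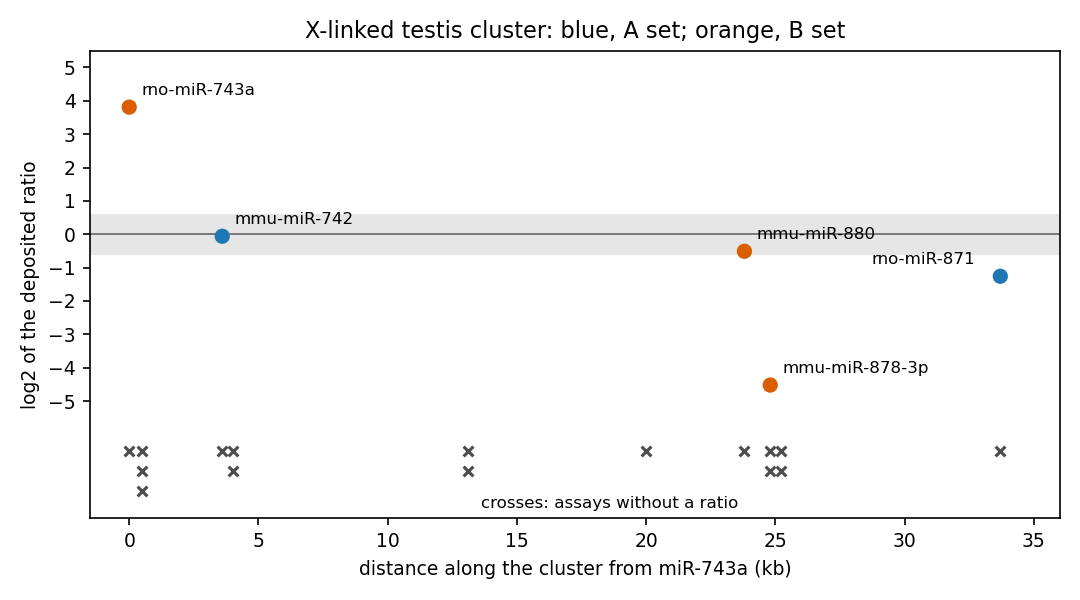
Log2 of the deposited ratio (y axis) against distance along the X-linked testis cluster from miR-743a in kb (x axis), blue for the A set and orange for the B set, with the band nearer to 1 than 1.5-fold in grey. The 5 points range from -4.52 for miR-878-3p to 3.81 for miR-743a, and the crosses below mark the 16 assays without a ratio.

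Close sequence copies in the cluster can be set beside these values. The pairs shown share a seed, which is in capitals.
miR-743a-3p: gAAAGACAccaagcugaguaga
miR-743b-3p: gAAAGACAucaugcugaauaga
miR-883a-3p: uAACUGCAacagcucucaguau
miR-883b-3p: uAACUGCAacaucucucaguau
miR-743a-5p: uAUUCAGAuuggugccugucau
miR-871-5p: uAUUCAGAuuagugccagucaug

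Counted from base 1, miR-743a-3p and miR-743b-3p are identical at 19 of 22 positions, miR-883a-3p and miR-883b-3p at 21 of 22, and miR-743a-5p and miR-871-5p at 20 of the 22 compared. None of the 3 rows of miR-743b and none of the 2 rows each of miR-883a and miR-883b had a ratio. The arm read by the miR-743a and miR-871 assays is not named, so it is not known whether their ratios of 14.0 and 0.416 in the authors' deposited table belong to the pair with a shared seed.

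Both strands of a hairpin could be compared for 6 members, using the starred rows that are no members. The strands of miR-676 stood at 1.17 and 1.14 in the authors' deposited table, close to each other. For miR-744 the authors' deposited table lists 0.964 and, for the starred strand, 1.39. The other 4 lay farther apart. MiR-872 stood at 8.13 and its starred strand at 1.28 in the authors' deposited table. MiR-674 stood at 0.353 against 0.904, and miR-879 at 0.610 against 1.14, in the authors' deposited table. The strands of miR-712 stood at 0.588 and 2.89 in the authors' deposited table. For 3 of the 6 hairpins, miR-712, miR-744 and miR-879, the strands were on opposite sides of 1. For 5 of the 6 hairpins the starred assay is in the other set, and for miR-712 both are in the B set. The starred strand of miR-881 stood at 0.000210 in the authors' deposited table, with no ratio for the rows of miR-881 itself.

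**Figure D5:**
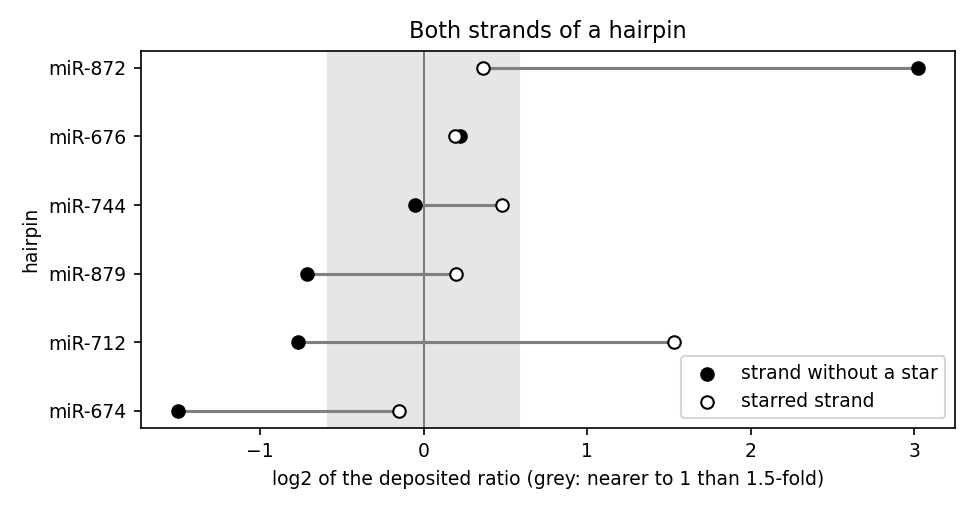
Log2 of the deposited ratio (x axis) of the strand without a star (filled) and the starred strand (open) of 6 hairpins (y axis), with the band nearer to 1 than 1.5-fold in grey. The strands of miR-676 nearly coincide at 0.22 and 0.19, and those of miR-872 lie at 3.02 and 0.36.

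Some members share a seed with well-known miRNAs that are also on the panel. MiR-721, known to act with the miR-130 family on shared targets, has the seed of miR-130a-3p, miR-130b-3p and miR-301a-3p.
miR-721: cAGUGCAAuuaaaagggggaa
miR-130a-3p: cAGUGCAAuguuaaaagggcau
miR-130b-3p: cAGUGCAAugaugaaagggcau
miR-301a-3p: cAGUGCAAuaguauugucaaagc
miR-708-5p: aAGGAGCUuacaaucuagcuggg
miR-28a-5p: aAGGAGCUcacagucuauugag

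MiR-721 stood at 0.673 in the authors' deposited table. The assays named miR-130a, miR-130b and miR-301 stood at 0.816, 0.858 and 0.858 in the authors' deposited table, so all 4 were below 1 and none passed the 1.5-fold limit. With the other small RNA controls as the reference, miR-721 passed that limit at 0.619. MiR-708 stood at 1.07 and the assay named miR-28 at 1.04 in the authors' deposited table. MiR-672 has in its 5p arm the seed of miR-377-5p, and these differed in side, with miR-672 at 1.10 and the human-named miR-377 assay at 0.676 in the authors' deposited table; the rat-named assay had no ratio. With the other small RNA controls as the reference, miR-672 and miR-708 fell below 1. The 5p arm of miR-674 has the seed of miR-1947-3p, whose assay had no ratio. These assay names give no arm, and the arm with the shared seed was assumed. MiR-761 has the seed of miR-214-3p but no ratio.

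Position in the genome was set beside the ratios for the 75 rows with a RefSeq entry. Over all miRNA rows of the panel, 75.5% had a ratio, and 50.9% of those ratios were above 1. Rows whose sequence lies inside the span of another gene, coding or long noncoding and on either strand, had a ratio in 24 of 43 cases (55.8%), with 14 above 1 and 10 below. Those outside other genes had one in 9 of 32 (28.1%), with 2 above 1 and 7 below. The X-linked testis cluster, with 21 rows, makes up most of the latter. Rows on X alone had a ratio in 9 of 28 cases (32.1%) and rows on autosomes alone in 23 of 46 (50.0%). Over rows with an identified arm, the G and C content of the mature sequence had a median of 52.4% for the 17 rows with a ratio (36.4% to 81.0%) and 47.6% for the 29 without (27.3% to 81.8%), so the ranges overlap widely.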

How the data were processed

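The authors' deposited values are linear ratios, 1 per row, of LP0.5 to Control, per the file headers; 12 columns of per-sample values in a second deposited table match no sample label by name and were used in no step. The planned limma fit was therefore not run. Limma is named in the submitters' processing notes, with no version or role; the reference, detection limit and averaging behind the ratios are not stated in those notes or in the file headers. The tables were joined on their shared spot code. Sets A and B were read from that code. Ratios were converted to log2 without averaging. Counts use a limit of 1.5-fold, with no filter on low values, and amplification depth was not analysed here. Members and lists were chosen with earlier results of these data known. Named were all members at least 1.5-fold from 1, those nearest the limit, those with several rows, the glucose and testis lists, shared seeds and members without a ratio; the other listed members were added after their values were seen. Sequences come from RefSeq (GRCm38.p6), and host genes from the RefSeq gene table of the same build. Counting was tested on simulated data in 100 simulations. Python 3.11.15, numpy 2.4.6, pandas 2.3.3 and matplotlib 3.10.9 were used.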

Additional observations from a re-analysis of the deposited data

How the results depend on the processing

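The deposited ratios, taken as relative to U6, gave 10 rows at least 1.5-fold above 1, 12 below and 19 above 1, with a median log2 ratio of -0.06. With snoRNA135, snoRNA202, U87 and Y1 as the reference, which takes 0.20 (A set) and 0.12 (B set) off each log2 ratio, these were 10, 15, 15 and -0.25. MiR-677, miR-721 and miR-880 then passed the lower limit at 0.620, 0.619 and 0.647, and miR-672, miR-700, miR-704 and miR-708 crossed 1. Counts changed by more than 1.5 times where fewer rows entered by construction: with A assays alone 4 above, 5 below and 8 above 1; with B assays alone 6, 7 and 11; 4 at least 1.5-fold above among ratios within 4-fold of 1; and 12 above 1 among assays with a mouse name, a setting chosen after seeing the data. The other 38 values of these 4 results changed less than that. For single rows and lists another reference only takes a constant off each set, which says nothing about their stability. No paired analysis was possible because the per-sample columns carry no sample or group name, and leaving out replicates was not run for the same reason. Levels and replicate spread behind the ratios were not analysed here, so no ratio carries an error.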
